A study of Mus musculus with 8 samples.

Results

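Beta cell nuclei of cultured mouse pancreatic islets were described here by the genes that set them apart from the other 8 cell types, in 6 of the 54 columns of a single nucleus RNA-seq table. The 6 columns are those the authors annotated as pancreatic B cells, 1 for each condition. A gene was taken as beta-enriched when its level in the beta cell column was at least 3-fold over the highest of the other cell types in both untreated conditions, and 24 of the 1569 genes at sufficient level, out of 17362 in the table, met this rule (1.53%). Levels are CP10K, the counts of a gene per 10000 counts of its column. CP10K is not divided by gene length, so levels were compared between columns and not between genes.

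Islets came from wild type mice (WT) and from mice in which Med14, the scaffold subunit of the Mediator complex, carries the S983A substitution in the germ line and thus in all cell types (called mutant below). In both genotypes there was an untreated group (CON), a group given forskolin (FSK), a direct activator of adenylyl cyclase, and a group given 10 nM Exendin-4 (Ex-4), an agonist of the GLP-1 receptor, for 16 h. The labels give no dose or time for FSK, and neither the age nor the number of mice. FSK and Ex-4 are used here as the table names its columns. Because of the cell type make-up drawn by the study for its treated islets, a doubt remained whether the names of the 2 treatments had been exchanged, and the labels did not settle it. This applies to every FSK and Ex-4 value below. About 100 islets were picked by hand and cultured for each nuclear preparation, and nuclei of all 6 conditions were carried by each of 8 sublibraries, so that the sublibraries are not replicates of a condition. Each condition and cell type is therefore 1 pool, no difference between conditions could be tested, and the intervals below (95%, exact) cover counting error only. Condition cannot be told apart from islet preparation.

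Beta cells sense glucose through uptake and phosphorylation, which raises ATP, closes ATP-sensitive potassium channels and opens calcium channels, and calcium then releases insulin from dense granules. Cyclic AMP, raised by the GLP-1 and GIP receptors, amplifies that release. A set of transcription factors that includes Pdx1, Nkx6-1 and Mafa keeps insulin genes on and the genes of other islet hormones off. Nuclear RNA holds many unspliced transcripts, so a nuclear level need not follow the amount of mature messenger RNA in the cell.

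The 6 beta cell columns were deep, with totals from 1915006 to 3094377 counts, whereas totals over all 54 columns began at 1522. Only other cell types with a total of at least 50000 counts were used for the comparison. Alpha, delta and endothelial cells met this in every condition. PP cells met it in WT CON and in the 3 mutant conditions, muscle cells in mutant CON and mutant FSK, and neurons in the 2 Ex-4 conditions alone. Counts under 3 in another cell type were set to 3, which makes the fold a lower bound for such genes.

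The columns labelled as neurons stood apart in a way that touches every Ex-4 comparison. The WT Ex-4 neuron column (51758 counts) held Ins2 at 9.08 CP10K and Ins1 at 5.60 CP10K, against 16.4 and 6.58 CP10K in the beta cells of that condition. Its deposited log values correlated with those of the WT Ex-4 beta cell column at r = 0.898 over all genes. The summed level of the 4 neural and Schwann cell markers in the table (of 6 listed) was 3.09 CP10K in that column and 3.43 CP10K in the beta cells beside it. In mutant Ex-4 the neuron column (58294 counts) held 7.03 CP10K of Ins2 and correlated with beta cells at r = 0.859, and its neural sum was 3.26 CP10K against 2.94 CP10K in beta cells. In both columns the insulin transcripts were thus high and the neural sum was close to that of beta cells. Delta cells held more of the neural list than these neuron columns, at 7.13 CP10K in WT Ex-4 and 5.28 CP10K in mutant Ex-4. This list therefore cannot judge neural content here. In CON and FSK the neuron columns also held counts on the 24 genes. As a percent of the beta cell share these came to 33.6% in WT CON, 39.3% in WT FSK, 37.4% in mutant CON and 24.2% in mutant FSK. In WT and mutant Ex-4 the values were 66.7% and 48.4%. Only the depth rule kept neurons out of the CON and FSK comparisons. Each fold over other cell types in Ex-4 is given with and without the neuron columns. Leaving them out was chosen after the values were seen.

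The beta cell label was compared with 6 markers. The authors named clusters by marker genes, so this is no independent check. Ins1 and Ins2 encode the mouse insulins. Slc2a2 encodes the glucose transporter GLUT2, Iapp the co-secreted peptide amylin, Slc30a8 the granule zinc transporter, and Nkx6-1 a beta cell transcription factor. Ins2 lay at 10.4 and 15.2 CP10K in WT CON and mutant CON beta cells, against 1.10 and 1.75 CP10K in alpha cells and 1.82 and 2.28 CP10K in delta cells. Nkx6-1 lay at 1.69 and 2.41 CP10K, 2.63-fold and 2.47-fold over the highest other type. Iapp missed the rule in the mutant, with folds of 3.37 and 2.93. Slc30a8 was higher in alpha cells than in beta cells in all 6 conditions, with beta over alpha folds from 0.651 to 0.892. Of the 6 markers, 5 were thus higher in beta cells than in every other cell type compared in both CON conditions, and Slc30a8 was not.

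Markers of other cells were low in the beta cell columns for most lists, but not for the ductal and neural lists. The 8 alpha cell markers summed to 1.25 to 4.55 CP10K in beta cells, which was 1.62% to 6.36% of their sum in the alpha cell columns. For the 7 delta cell markers in the table, the beta cell sum was 14.3% to 20.4% of the delta cell sum. The 5 PP cell markers reached 1.44% to 4.65% of their sum in PP cells. The endothelial markers summed to at most 0.324 CP10K, the macrophage markers to at most 0.0470 CP10K and the muscle and pericyte markers to at most 0.104 CP10K. The 4 ductal markers in the table summed to 2.46 to 3.49 CP10K, which was 18.7% to 78.4% of their sum in the ductal columns. The 4 neural and Schwann cell markers summed to 2.19 to 3.66 CP10K, or 63.4% to 111% of their sum in the neuron columns. None of the 7 acinar markers listed was in the table. Endothelial cells, which do not make insulin, held Ins2 at 0.804 to 3.75 CP10K. The source of the Ins2 counts in those columns was not tested.

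Both insulin genes passed the rule in both untreated conditions. Ins2 was 5.71-fold over the highest other type in WT CON (interval 4.48 to 7.41) and 6.05-fold in mutant CON (4.44 to 8.49). Ins1 was 6.33-fold (4.30 to 9.73) and 5.24-fold (2.84 to 11). Ins1 and Ins2 are close copies of each other, so reads may have been split between them in an uncertain way.

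The bases before the annotated starts of Ins1, Ins2, G6pc2 and Slc2a2 are shown because these genes carry the identity set in name and function. These genes encode the insulins, a glucose-6-phosphatase of beta cells and GLUT2. Each run is the 250 bases before the start of the canonical transcript in GRCm39 (GENCODE M39), 5′ to 3′ on the strand of the gene. Capitals mark TAAT, the core bound by homeodomain factors such as Pdx1 and Nkx6-1, CAGATG, an E-box of the kind bound by Neurod1 with its partners, and TGACG, part of the site of cAMP-responsive factors, on either strand. Where 2 matches touch or overlap, they read as 1 run of capitals.
Ins1 (chr19:52252485-52252734, plus strand): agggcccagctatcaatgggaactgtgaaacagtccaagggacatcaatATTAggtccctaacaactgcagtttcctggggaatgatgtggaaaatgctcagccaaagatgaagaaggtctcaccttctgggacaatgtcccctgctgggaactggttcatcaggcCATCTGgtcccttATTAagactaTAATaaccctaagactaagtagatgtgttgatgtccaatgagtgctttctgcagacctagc
Ins2 (chr7:142233464-142233713, minus strand): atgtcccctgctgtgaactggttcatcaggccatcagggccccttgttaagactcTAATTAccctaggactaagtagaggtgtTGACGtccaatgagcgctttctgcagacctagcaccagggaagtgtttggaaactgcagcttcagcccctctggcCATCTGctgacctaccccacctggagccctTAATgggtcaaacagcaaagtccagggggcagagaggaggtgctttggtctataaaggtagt
G6pc2 (chr2:69050065-69050314, plus strand): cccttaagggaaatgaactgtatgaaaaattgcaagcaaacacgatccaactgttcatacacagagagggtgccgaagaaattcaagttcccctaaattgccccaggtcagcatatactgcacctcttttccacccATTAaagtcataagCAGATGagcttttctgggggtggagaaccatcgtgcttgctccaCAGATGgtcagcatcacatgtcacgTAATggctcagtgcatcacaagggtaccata
Slc2a2 (chr3:28751801-28752050, plus strand): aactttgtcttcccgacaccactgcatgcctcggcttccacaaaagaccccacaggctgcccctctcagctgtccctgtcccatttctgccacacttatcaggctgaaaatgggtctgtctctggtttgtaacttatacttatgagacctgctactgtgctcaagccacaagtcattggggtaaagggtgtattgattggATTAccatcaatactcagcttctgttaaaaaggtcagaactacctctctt

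Over the 24 beta-enriched genes, CAGATG was found in 8 of the 24 windows (33.3%), compared with 10.8% of the 1545 genes at sufficient level with a window and 11.9% of all 16525 windows. TAAT was found in 13 of 24 (54.2%), compared with 42.8% and 48.9%. TGACG was found in 3 of 24 (12.5%), compared with 24.5% and 21.4%. A match describes letters in this window and not a bound site, and the shares were not tested.

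Genes of glucose handling and secretion made up a further group of the 24. G6pc2, which removes the phosphate from glucose 6-phosphate, lay at 4.20 CP10K in WT CON beta cells and 1.59 CP10K in mutant CON beta cells, 5.71-fold and 3.27-fold over the highest other type. Slc2a2 lay at 12.0 and 4.82 CP10K, 3.74-fold and 4.27-fold. Ero1b, an oxidase that forms disulfide bonds in proinsulin, lay at 29.1 and 11.9 CP10K, 5.32-fold and 4.30-fold. Sytl4 (granuphilin), which docks insulin granules, was 5.46-fold and 5.64-fold, and Pcsk1, the convertase that opens proinsulin, was 5.07-fold and 3.55-fold. Atp2a2, the calcium pump SERCA2 of the endoplasmic reticulum, was 4.50-fold and 3.02-fold. In each of these genes except Sytl4 and Slc2a2 the fold was lower in the mutant than in WT. Of the 2 CON conditions, however, muscle cells entered the comparison in the mutant alone. For G6pc2, Sytl4 and Pcsk1 the highest other type in mutant CON held 3 counts or fewer. Those folds are imprecise and may be lower bounds, so no difference between genotypes can be read from them. Against alpha, delta and endothelial cells only, the median fold of the 24 genes was 5.64 in WT CON and 5.36 in mutant CON.

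Among receptors, Glp1r, the receptor that Ex-4 activates, was 4.93-fold over the highest other type in WT CON (3.88 to 6.36) and 3.92-fold in mutant CON (3.22 to 4.82). Its beta cell level was 9.39 and 7.34 CP10K, against 1.90 and 1.87 CP10K in delta cells. Prlr, the prolactin receptor, through which beta cells grow in pregnancy, was 3.24-fold and 4.46-fold. Gabbr2, a subunit of the GABA-B receptor, was 3.53-fold and 3.94-fold, and the orphan receptor Gpr158 was 4.39-fold and 5.39-fold. The highest other type in WT CON was PP cells for 13 and delta cells for 7 of the 24 genes, whereas in mutant CON it was muscle cells for 13. That column held 61537 counts, and WT CON had no muscle cell column deep enough to enter.

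The rest of the set had less in common. Bace2, a protease that cleaves Tmem27 in beta cells, was 3.09-fold and 3.47-fold. Tmem163, a zinc transporter, was 3.98-fold and 3.56-fold, and Slco1a6, an organic anion transporter, was 3.33-fold and 5.15-fold. Papss2, which makes the sulfate donor PAPS, was 5.06-fold and 3.67-fold. Phactr1, which binds actin and protein phosphatase 1, was 3.57-fold (3.36 to 3.80) and 3.50-fold (3.28 to 3.75), the narrowest intervals of the 24. Car10, Fras1, Sgcz, Frmd5 and Muc4 lay between 3.15-fold and 5.25-fold in both. The long noncoding RNAs Gm6999 (5.41-fold and 6.05-fold) and Gm34759 (5.73-fold and 5.77-fold) completed the set. Gene spans ran from 1.18 to 1139 kb with a median of 79.0 kb, compared with 108 kb over genes at sufficient level, and 18 of the 24 spans (75%, compared with 90% over genes at sufficient level with a span) overlapped another annotated gene, whose reads cannot be told apart if strand was not used in counting.

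The rule cut through a continuum. Just inside lay Atp2a2, Bace2 and Frmd5, with lower folds of 3.02, 3.09 and 3.15. Among genes just outside were Iapp (2.93) and Dlgap1 (2.88). In single conditions, 3.7% of the 1569 genes were at least 3-fold in WT CON (58 genes) and 1.78% in mutant CON (28 genes). These numbers rest on unlike comparisons, since muscle cells entered in mutant CON alone. The 34 genes past 3-fold in WT CON alone had a median of 2.15-fold in mutant CON, which their choice keeps under 3-fold. Alpha, delta and endothelial cells were the 3 types deep enough in all 6 conditions. Against these only, 75 genes were at least 3-fold in WT CON, 53 in mutant CON and 50 in both. The 26 added genes included Nkx6-1, Gad1, which makes GABA, and Pcx, the pyruvate carboxylase of anaplerosis.

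**Figure D1:**
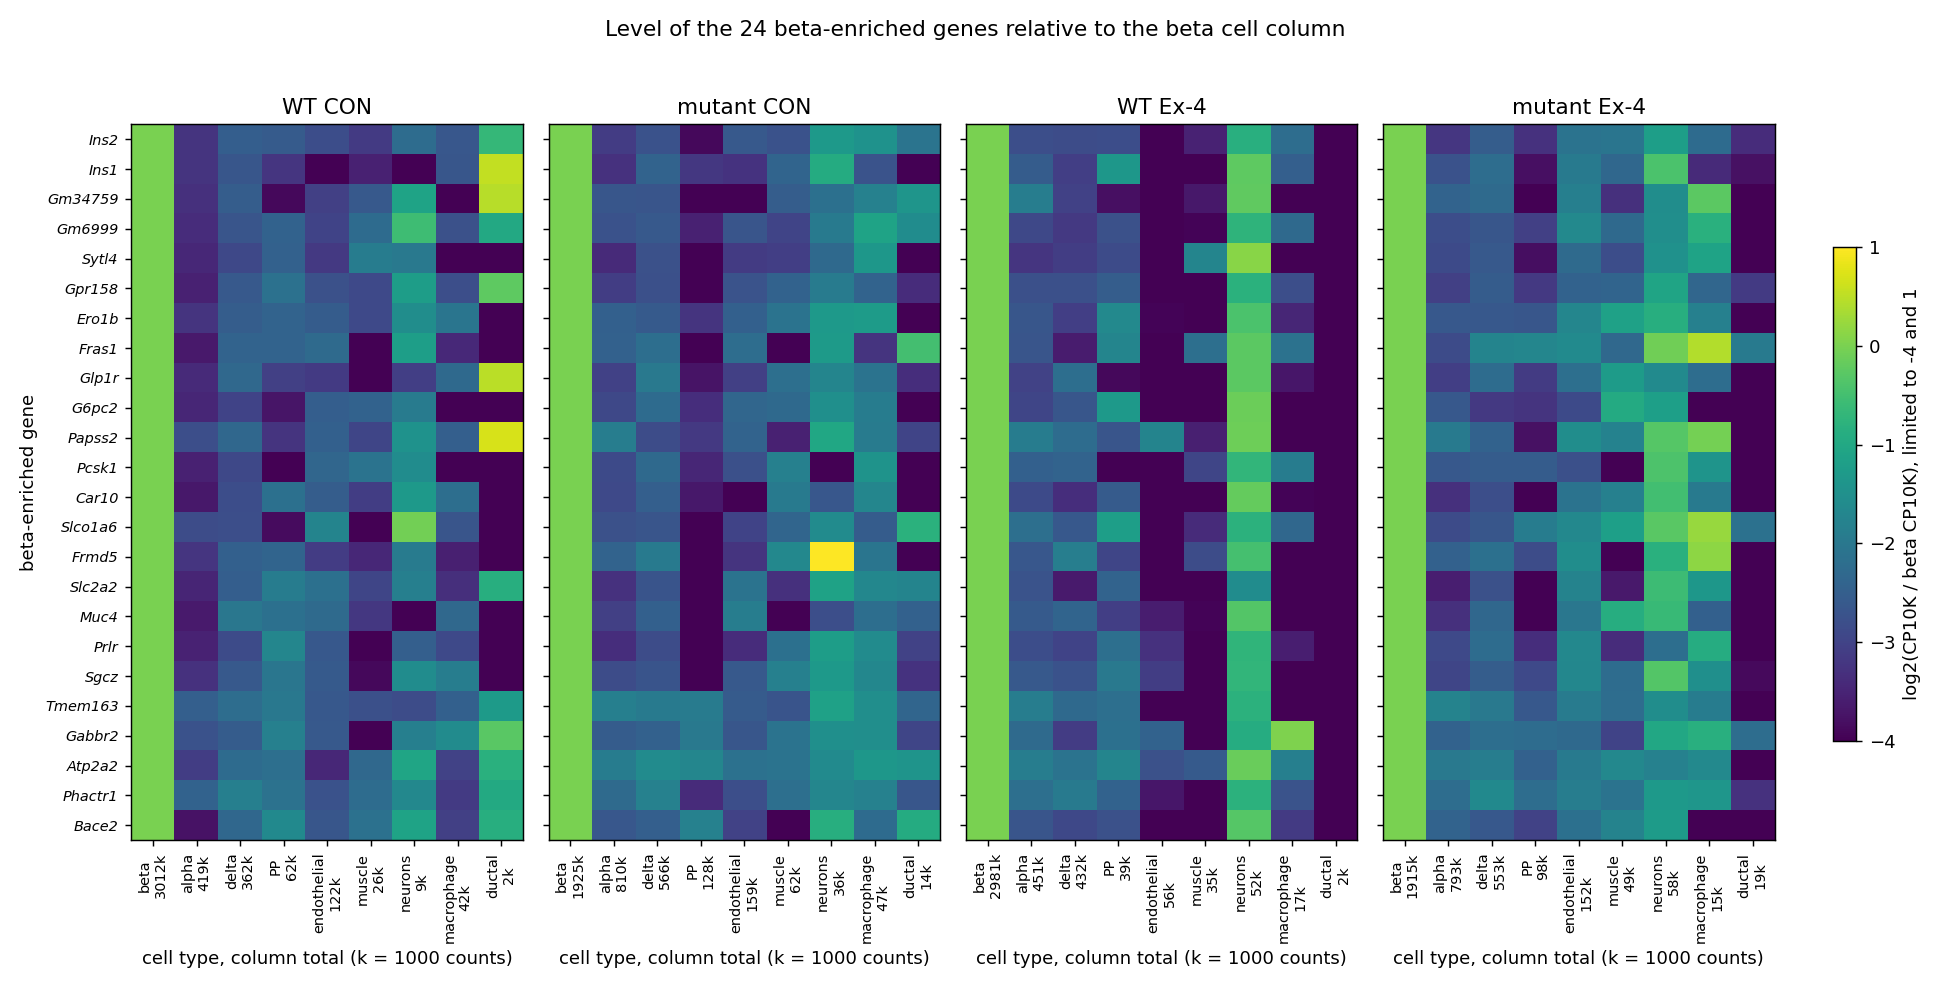
Each cell gives the CP10K of a gene in a cell type divided by its beta cell CP10K (log2 scale, limited to -4 and 1), for the 24 genes in WT CON, mutant CON, WT Ex-4 and mutant Ex-4. The total of each column stands under its name in units of 1000 counts. Alpha and delta cells are dark in all 4 panels, whereas the neuron column is bright in WT Ex-4. Ductal columns rest on few counts.

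The choice of genes did not use the FSK conditions, but the authors clustered nuclei of all conditions together and named clusters by marker genes. A beta cell column is thus set up to carry beta cell markers in every condition. Retention in FSK or Ex-4 therefore describes the columns and is no independent test. In FSK, 22 of the 24 genes were still at least 3-fold in WT and 22 of 24 in the mutant. Over all 1569 genes the shares were 6.18% and 4.53%. The median fold of the 24 was 7.73 in WT FSK and 6.85 in mutant FSK, compared with 4.66 in WT CON and 3.93 in mutant CON, and the median over all genes stayed between 0.733 and 0.854 in these 4 conditions. Sgcz reached 13.9-fold in WT FSK (10.8 to 18.2) and Pcsk1 13.2-fold (7.71 to 24.9). Prlr reached 11.4-fold in mutant FSK (7.38 to 18.7). PP and muscle cells were not deep enough to enter in WT FSK. Against alpha, delta and endothelial cells throughout, the medians were 5.64 in WT CON and 7.73 in WT FSK, and 5.36 in mutant CON and 7.63 in mutant FSK.

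The 2 genes under 3-fold were the same in both FSK conditions. Tmem163 was 2.22-fold (2.00 to 2.47) over delta cells in WT FSK and 2.15-fold (1.74 to 2.68) over PP cells in mutant FSK, while its beta cell level was 19.7 and 20.7 CP10K, above both CON levels of 16.0 and 7.39 CP10K. For Gm34759 the depth set the limit. Its beta cell level was 0.685 and 0.482 CP10K after FSK, and the highest other type held 2 counts and 1 count, so the folds of 1.42 and 1.4 are lower bounds.

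In Ex-4 the outcome depended on the neuron columns. With them, 0 of the 24 genes were at least 3-fold in WT Ex-4 and 3 of 24 in mutant Ex-4 (Glp1r, Prlr and Atp2a2), where the shares over all 1569 genes were 0% and 0.255%. Neurons were the highest other type for 24 of 24 genes in WT Ex-4 and for 23 of 24 in mutant Ex-4. Without the neuron columns, 24 of 24 genes were at least 3-fold in WT Ex-4 and 22 of 24 in mutant Ex-4, where the shares over all genes were 3% and 2.23%. The median fold moved from 1.36 to 5.04 in WT Ex-4 and from 2.06 to 3.62 in mutant Ex-4. The 2 genes under 3-fold without neurons in mutant Ex-4 were Frmd5 and Papss2, at 2.91 and 2.91.

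Single genes show the same contrast. Ins2 in WT Ex-4 was 1.80-fold over neurons (1.35 to 2.46) and 6.91-fold over the highest type once neurons were left out. Ero1b was 1.33-fold and 6.31-fold. Sytl4 was lower in beta cells than in neurons (0.922-fold) but 6.92-fold over the highest of the rest. In mutant Ex-4, Ins1 was 1.34-fold over neurons (0.937 to 1.97) and 3.86-fold without them.

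**Figure D2:**
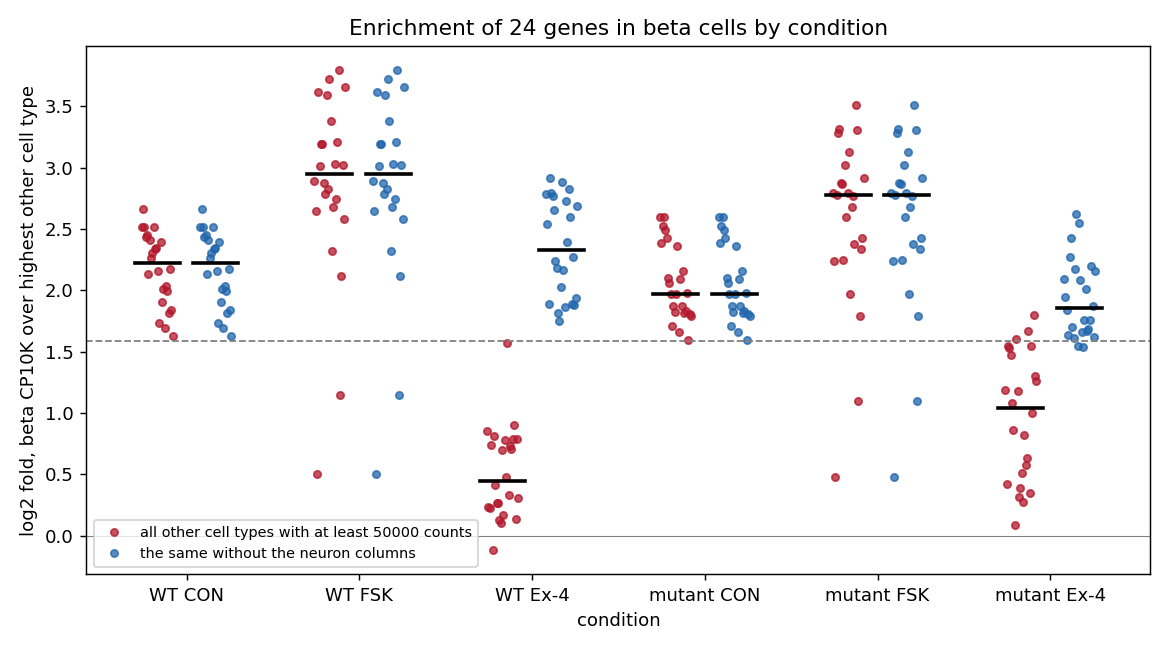
Points are the 24 beta-enriched genes, placed by the log2 fold of the beta cell column over the highest other cell type, in each of the 6 conditions. Red points use all cell types with at least 50000 counts, blue points leave out the neuron columns, black lines are medians and the dashed line marks 3-fold. The red and blue sets part in the Ex-4 conditions alone, the only ones with neuron columns deep enough to enter. The median there is 0.45 against 2.33 in WT and 1.04 against 1.86 in the mutant.

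The share of all counts that fell on the 24 genes puts the set in 1 value per column. In WT beta cells it was 3.54% untreated, 4.03% after FSK and 2.27% after Ex-4. In mutant beta cells it was 2.00%, 3.73% and 1.99% in the same order. In alpha cells it was 0.340% to 0.570% and in delta cells 0.387% to 0.724%. The neuron column held 1.52% in WT Ex-4. WT CON and both FSK columns were thus high and the other 3 beta cell columns were low. No alpha or delta cell column reached the lowest beta cell value. In CON the rule itself sets alpha and delta cells under beta cells for each of the 24 genes. Their lower share there is therefore no further support. Phactr1 contributed to this share at 102, 110 and 58.7 CP10K in WT and 58.9, 106 and 56.0 CP10K in the mutant, in the order CON, FSK and Ex-4.

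**Figure D3:**
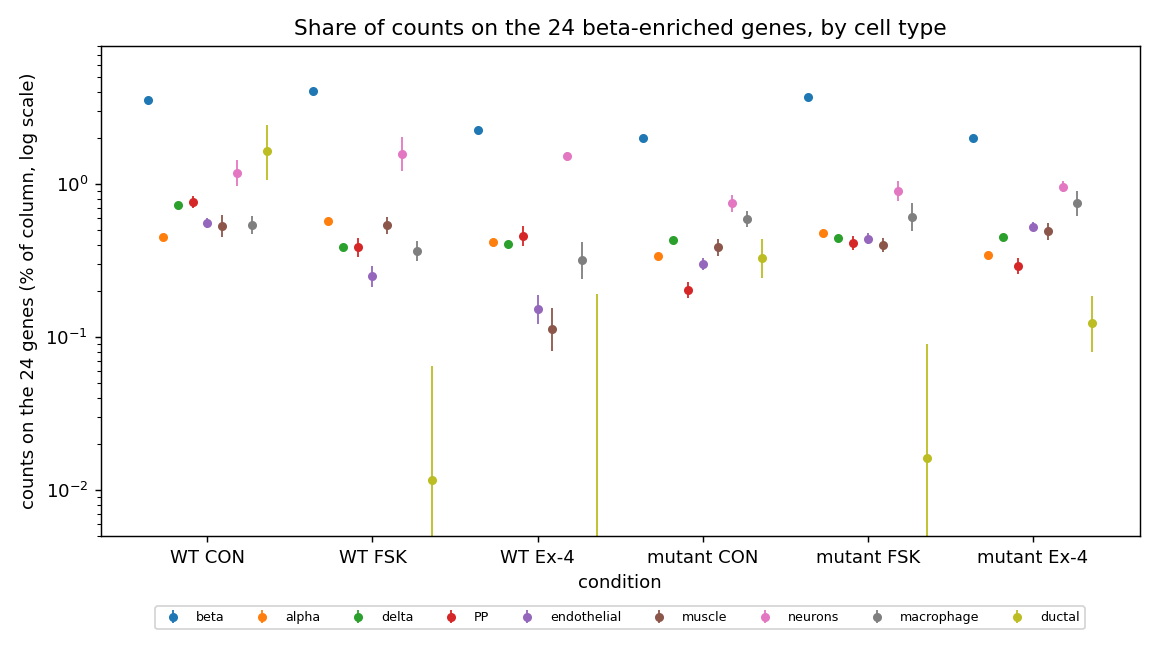
Points give the counts on the 24 genes as a percent of all counts of a column (log axis), by condition and cell type, with exact 95% binomial bars. Beta cells hold 1.99% to 4.03%, alpha and delta cells under 0.8%, and neurons lie between them in each condition. In CON the lower share in alpha and delta cells follows from the choice of genes. The WT Ex-4 ductal column holds none and has no point.

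The levels of the 24 genes within beta cells were compared next, by the ratio of CP10K between conditions at 1.5-fold. CON is shared by the FSK and the Ex-4 comparison of a genotype. After FSK in WT, 4 of the 24 genes were higher and 3 lower, where 7.78% of all genes were higher and 10.2% lower. G6pc2 lay at 4.20 CP10K in CON and 8.97 CP10K in FSK (ratio 2.14, 2.00 to 2.28). Gabbr2 (2.05), Pcsk1 (1.92) and Car10 (1.68) were the other genes above. Gm34759 was lowest (ratio 0.144, 0.124 to 0.167), followed by Glp1r (0.591, 0.556 to 0.627) and Slc2a2 (0.657, 0.624 to 0.692). With a trend on gene length removed, 5 were higher and 1 lower.

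After FSK in the mutant, 14 of the 24 genes were higher and 3 lower, where 28.4% of all genes were higher and 19.4% lower. G6pc2 lay at 1.59 CP10K in CON and 9.34 CP10K in FSK (ratio 5.86, 5.20 to 6.63), Sgcz at 6.87 and 22.6 CP10K (3.29) and Car10 at 6.99 and 22.9 CP10K (3.28). The lower genes were Gm34759 (0.129), Ins1 (0.422, 0.387 to 0.459, but 1.22 with a trend on gene length removed) and Ins2 (0.576, 0.544 to 0.610). The FSK levels themselves were close in the 2 genotypes for many genes. G6pc2 reached 8.97 and 9.34 CP10K, Gabbr2 16.3 and 17.6 CP10K and Frmd5 12.1 and 11.5 CP10K, so that the larger mutant ratios went with lower CON levels. The ratios were not tested between genotypes.

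With Ex-4 in WT islets, 1 of the 24 genes was higher and 13 lower, where 10.3% of all genes were higher and 21% lower. Ins2 was the higher gene, at 10.4 CP10K in CON and 16.4 CP10K in Ex-4 (ratio 1.57, 1.51 to 1.65), and Ins1 followed at 4.54 and 6.58 CP10K (1.45, 1.35 to 1.55). With a trend on gene length removed, 0 genes were higher and 8 lower, with Ins2 at 1.48 and Ins1 at 0.706. Sgcz (0.398), Bace2 (0.442) and G6pc2 (0.453) had the lowest ratios, and Slc2a2 lay at 12.0 and 6.91 CP10K (0.575). After Ex-4 in the mutant, 0 of the 24 genes were higher and 0 lower, where 0.127% of all genes were higher and 0.127% lower (2 genes each). The ratios of the 24 ran from 0.834 for Ins1 to 1.22 for G6pc2. No test stands behind these counts.

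Beta cell levels in the untreated mutant differed from those in untreated WT in most of the set, but the shift was not confined to beta cells (below). In mutant CON against WT CON, 1 of the 24 genes was higher and 18 lower, where 11.7% of all genes were higher and 30.7% lower. These were the columns on which the genes were chosen, but the choice used the fold over other cell types in each and not the ratio between them. Ins1 was the higher gene, at 4.54 CP10K in WT and 8.52 CP10K in the mutant (ratio 1.87, 1.74 to 2.02), and Ins2 lay at 10.4 and 15.2 CP10K (1.46, 1.39 to 1.54). Sgcz (23.0 and 6.87 CP10K, ratio 0.299), Bace2 (11.9 and 4.07 CP10K, 0.341) and G6pc2 (4.20 and 1.59 CP10K, 0.380) had the lowest ratios. The median ratio of the 24 was 0.506, compared with 0.843 over all genes. With a trend on gene length removed, 0 of the 24 were higher and 12 lower, and the ratio of Ins1 turned to 0.823 while that of Ins2 was 1.47. The annotated span was 1.18 kb for Ins1 and 64.7 kb for Ins2. Of the 1545 genes at sufficient level with a span only 3, Ins1 included, were as short as Ins1, so the trend is thinly set there. Ins2 was corrected as a gene of 64.7 kb, so its corrected ratios rest on that annotated span. Whether they would hold at a span like that of Ins1 was not tested. The share of counts on the 24 genes was lower in mutant CON than in WT CON in other cell types too. It was 0.453% in WT CON and 0.340% in mutant CON in alpha cells, and 0.724% and 0.428% in delta cells. PP and endothelial cells had the same order, and macrophages the reverse (0.542% and 0.594%). Ins2 was also higher in mutant CON in alpha and delta cells. Whether the shift is particular to beta cells was not tested.

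On the CP10K scale the insulin genes thus ran against the rest of the set. For Ins1 this did not hold once the length trend was removed, and for Ins2 the correction rests on its annotated span. Ins1 and Ins2 were highest in mutant CON and in both Ex-4 columns, in each of which 21 of the other 22 genes, all but Muc4, lay below their WT CON level. The same 3 columns held more RNA linked to ribosomal RNA loci and mitochondria. The 17 such genes took 10.4%, 13.2% and 16.4% of beta cell counts in WT Ex-4 and in the mutant CON and Ex-4 columns, respectively, against 3.97%, 3.17% and 3.08% in WT CON, WT FSK and mutant FSK. Their part in the result was not tested. Columns rescaled without those genes left the number of lower genes within 1.5 times in each comparison.

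**Figure D4:**
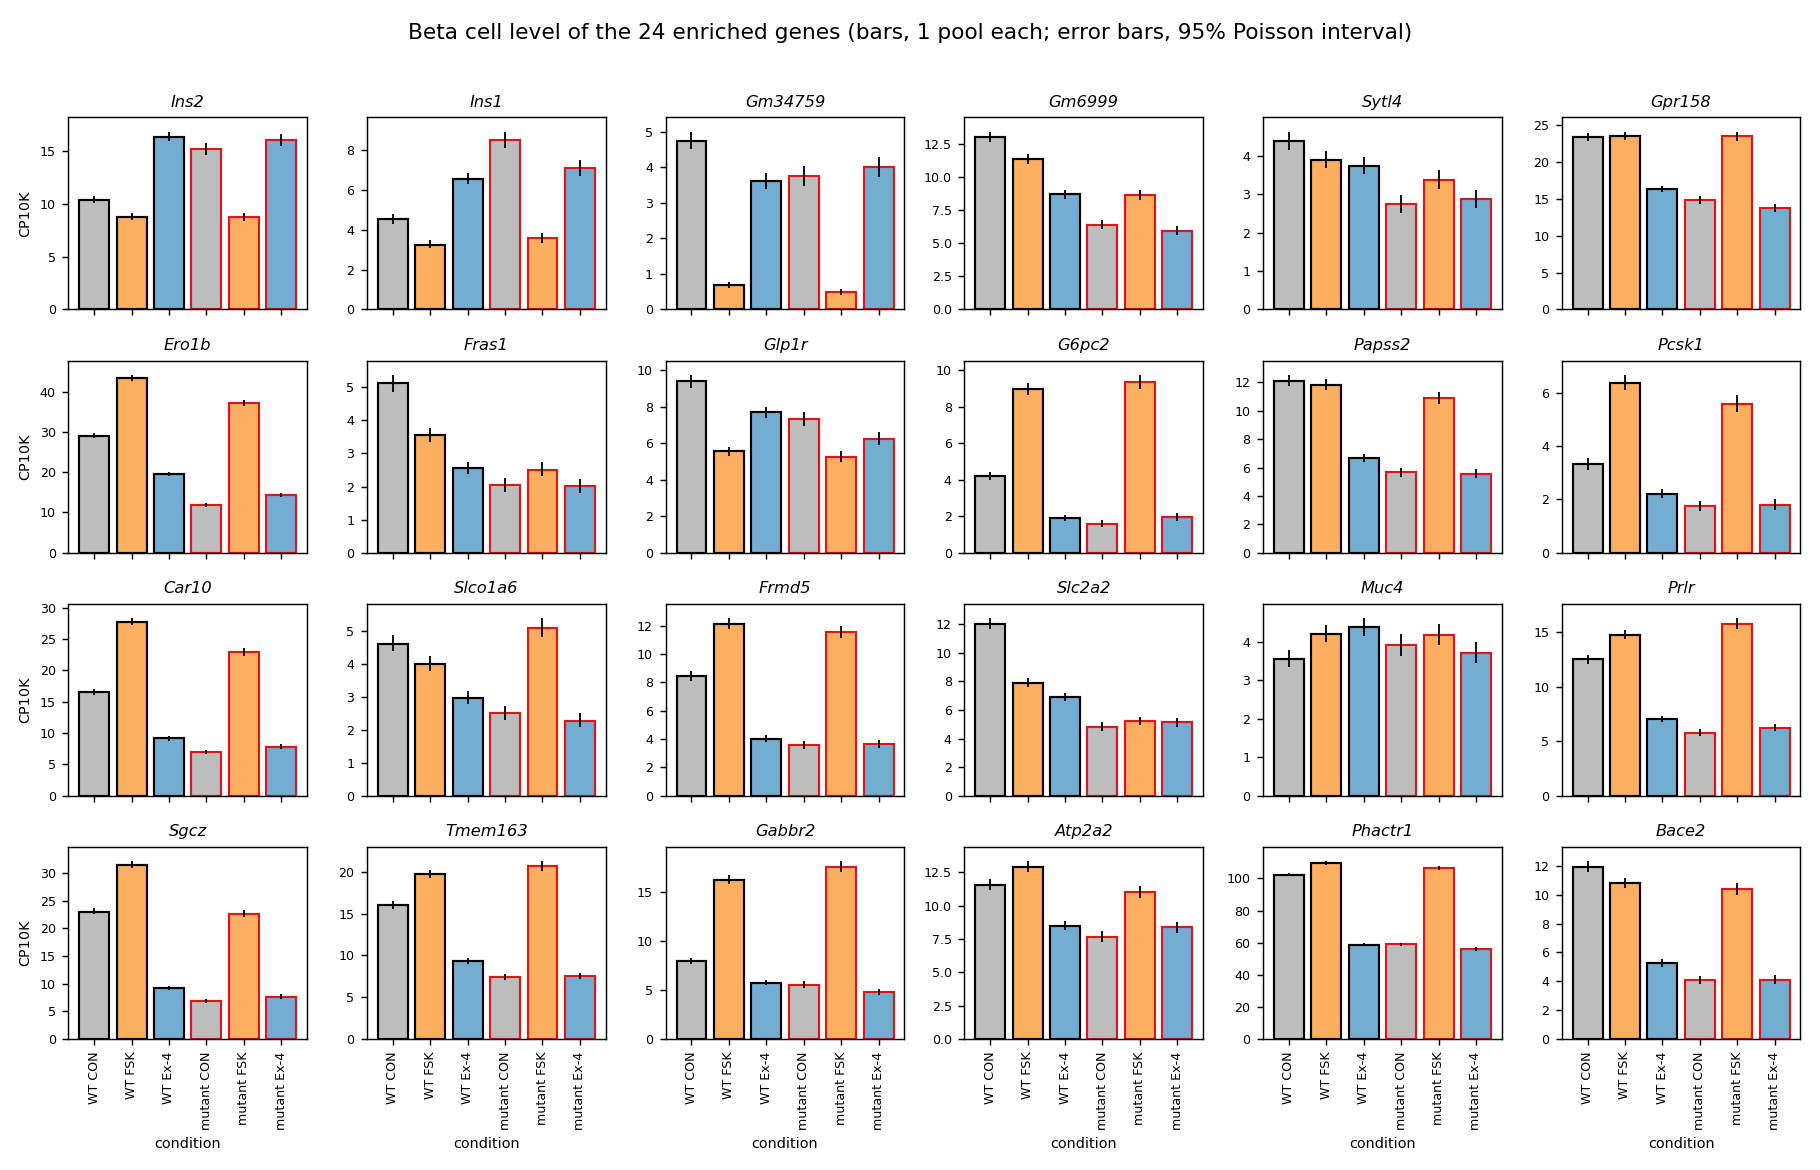
Bars give the beta cell level (CP10K, axis from 0, a separate scale for each gene) of the 24 genes in the 6 conditions, with exact 95% Poisson intervals. Grey is CON, orange FSK and blue Ex-4, and black outlines mark WT and red outlines the mutant. Most genes are low in both Ex-4 columns and in mutant CON, and Ins1 and Ins2 are high there on this scale (with the length trend removed, Ins1 turned in mutant CON and WT Ex-4).

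Beta cell genes from wider lists were followed in the same way. Of 18 transcription factors listed, 17 were in the table, 11 were at sufficient level and 0 were at least 3-fold in either CON condition. Pdx1 was 2.04-fold in WT CON and 2.06-fold in mutant CON, at 1.64 and 1.86 CP10K. Isl1, which all islet endocrine cells use, was 0.431-fold and 0.444-fold. Mlxipl (ChREBP, which responds to glucose) lay at 10.7, 2.64 and 13.2 CP10K in WT and at 16.7, 3.03 and 14.3 CP10K in the mutant, in the order CON, FSK and Ex-4, so that both FSK columns were lowest. At 1.5-fold, 1 of the 11 factors was higher and 1 lower in mutant CON against WT CON, where 11.7% of all genes were higher and 30.7% lower.

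Of 12 genes of glucose sensing and secretion, 10 were at sufficient level, and 5 were at least 3-fold in WT CON and 4 in mutant CON. For this and the lists that follow, the shares over all 1569 genes were 3.7% in WT CON and 1.78% in mutant CON. The gene in WT alone was Pcx (4.45-fold and 1.98-fold). Its mutant value is set by 5 counts in muscle cells, a type not compared in WT CON, and over alpha, delta and endothelial cells Pcx was 4.45-fold and 3.42-fold. Abcc8, the sulfonylurea receptor subunit of the potassium channel, was 0.747-fold and 0.776-fold. Of 15 granule genes, 13 were at sufficient level, and 2 and 1 were at least 3-fold. Pcsk2, the second proinsulin convertase, was 1.33-fold and 1.21-fold.

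Of 10 receptor genes, 5 were at sufficient level, and 3 and 4 were at least 3-fold. Gipr, the receptor of the other incretin, was 2.85-fold and 2.45-fold and lay at 3.06, 1.79 and 4.08 CP10K in WT and 4.14, 1.32 and 3.47 CP10K in the mutant. Insrr, related to the insulin receptor, was 2.79-fold and 3.45-fold. Of 10 genes linked to beta cell maturity, 5 were at sufficient level, and 2 and 1 were at least 3-fold. Ucn3, a hallmark of mature mouse beta cells, was not, at 0.232 and 0.166 CP10K, and Mafa lay at 0.505 and 1.01 CP10K. Of 12 genes linked to immature or dedifferentiated beta cells, 8 were in the table and 0 were at sufficient level. Their summed beta cell level was 0.16 to 0.52 CP10K over the 6 conditions.

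Whole profiles placed each beta cell column next to another beta cell column. Over 17362 genes and the 32 columns with at least 50000 counts, the highest Pearson correlation of deposited log values with another beta cell column was 0.968 to 0.994, and the highest with any other cell type was 0.844 to 0.934. The nearest column to WT Ex-4 was mutant Ex-4 (0.992), that to WT FSK was mutant FSK (0.993), and that to mutant CON was mutant Ex-4 (0.994). The separation did not hold for every pair. Mutant CON correlated at 0.897 with its most distant beta cell column, WT FSK, and at 0.930 with delta cells of mutant Ex-4. For mutant Ex-4 these values were 0.904 and 0.934, and for WT Ex-4 both were 0.919. Correlations across genes describe these columns and share depth and highly counted genes.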

How the data were processed

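The authors prepared nuclei from islets, barcoded them in rounds in which the first barcode marks the condition, aligned reads to the mouse genome (mm39 per the labels), filtered, normalized and clustered the nuclei, and gave each cluster a cell type. The study took an equal number of nuclei per sample for its later steps. Whether the deposited columns were made after that step, the nuclei in each column, the gene annotation and the use of strand are not given in the sources used here. The deposited table holds natural log values, ln(1 + 10000 × count / column total), for 17362 genes in 54 pooled columns. The log was undone to give CP10K, and whole counts were recovered (100% of values within 0.001 of a whole number). No column lacked a condition and a cell type.

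Beta-enriched genes had at least 1 CP10K in both CON beta cell columns and at least 3-fold over the highest other cell type with 50000 counts or more, counts under 3 being set to 3. Level ratios were called at 1.5-fold. Poisson, Clopper-Pearson and conditional binomial intervals (95%) cover counting error only and do not allow for the choice of the highest of several columns. With 1 pool per condition no test was run. On simulated counts the fold understated the true fold and missed many enriched genes of low level, so the number of beta-enriched genes is a low count. The simulation was first required to recover genes of all levels and did not, and the requirement was then limited to genes of higher level without a change of the measure.

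Named genes were the 6 markers, members of the beta cell lists, the 20 beta-enriched genes of largest mean fold, the 3 of largest rise and fall per comparison, genes under 1.5-fold in a treated condition, up to 10 beta-depleted genes and the 3 genes on each side of the threshold. Others were chosen after their values were seen. Some genes that this rule names are not reported here. The members, lists and rules were chosen with earlier results of these data known. Coordinates and promoters came from GRCm39 with GENCODE M39, in which 16531 genes matched by name once and 831 did not. Computations were made in Python 3.11.15 with scipy 1.17.1 for intervals, pandas 2.3.3 and numpy 2.4.6 for tables, matplotlib 3.10.9 for plots and statsmodels 0.14.6 for the length trend.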

Additional observations from a re-analysis of the deposited data

Results flagged for a closer look

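Among the 24 beta-enriched genes under the 2 treatments, the interval of the level ratio lay on opposite sides of 1 in the genotypes in 11 cases. The number of such cases over all 1569 genes is not given here, so the 11 cannot be read as particular to this set. At 1.5-fold over all genes, 7.78% were higher and 10.2% lower after FSK in WT, against 28.4% and 19.4% in mutant beta cells. After Ex-4 these shares were 10.3% and 21% in WT, against 0.127% each in mutant beta cells. The difference between genotypes was not tested, the intervals cover counting error only, and each ratio compares single pools. After FSK, Slco1a6 was 0.868 of its CON level in WT and 2.04 in the mutant, and Bace2 was 0.905 and 2.56. Gm6999 (0.871 and 1.35), Sytl4 (0.887 and 1.23) and Fras1 (0.693 and 1.24) showed the same order after FSK. After Ex-4, Ins1 was 1.45 of its CON level in WT and 0.834 in the mutant. The reverse order after Ex-4 was seen for Sgcz (0.398 and 1.11), G6pc2 (0.453 and 1.22), Car10 (0.554 and 1.12), Ero1b (0.672 and 1.21) and Atp2a2 (0.734 and 1.09). With a trend on gene length removed, Ins1 after Ex-4 in WT stood at 0.706, Fras1 after FSK in the mutant at 0.749 and Sytl4 after FSK in WT at 1.00. In each of these genes other than Ins1, the mutant CON level was below the WT CON level, and Ins1 had the higher CON level in the mutant.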

How the results depend on the processing

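There were 267 values under 26 alternatives for 21 results. Of these, 174 kept to the range set for them (a count within 1.5 times, a share within its binomial interval, a median within the binomial interval of the median over genes) and 93 did not. Only the medians of log2 fold could reverse in sign, since counts and shares have none, and no median did. The neuron columns changed the Ex-4 outcome most often. Settings without the neuron columns and with alpha, delta and endothelial cells only were chosen after seeing the data. No paired analysis was possible because each condition is 1 pool with no replicate number. No replicate could be left out for the same reason.

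Without the neuron columns, 100% and 91.7% of the genes were still enriched in WT and mutant Ex-4, with median log2 folds of 2.33 and 1.86. Rescaled columns without ribosomal RNA linked and mitochondrial genes gave 100% and 92% with medians of 2.35 and 1.88, because the rescaled neuron columns held under 50000 counts. With alpha, delta and endothelial cells only, 50 genes passed, with 76% and 68% still enriched in WT and mutant Ex-4 and medians of 1.89 and 1.70 there and of 2.67 in WT FSK. With alpha and delta cells only, 56 genes passed, with 89.3% and 78.6% and medians of 2.24 and 2.03 in WT and mutant Ex-4.

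The pooled counts of the other 8 cell types gave 72 genes, 84.7% and 87.5% still enriched in WT and mutant Ex-4, and medians of 2.46 in WT CON, 2.08 in WT Ex-4 and 1.97 in mutant Ex-4. Their equally weighted mean gave 67 genes, 91.0% and 62.7%, and medians of 2.15 and 1.75 in Ex-4. With a total of at least 20000 counts, 6 genes passed, with 66.7% still enriched in mutant FSK, 0% in mutant Ex-4, and medians of 2.66 in WT FSK, 1.76 in mutant CON and 2.06 in mutant FSK. With all 8 other cell types, however shallow, 0 genes passed, so no share or median could be given.

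At 2-fold, 66 genes passed, with 34.8% still enriched in mutant Ex-4 and medians of 1.78 and 1.5 in WT and mutant CON and 2.38 and 2.02 in WT and mutant FSK. At 5-fold, 5 genes passed, with 60% in mutant FSK, 0% in mutant Ex-4 and medians of 2.51 in WT CON and 2.53 in mutant CON. A pseudocount of 1 CP10K gave 6 genes, 0% in mutant Ex-4 and medians of 1.98 in WT CON and of 2.60 and 2.24 in WT and mutant FSK. Genes chosen on WT CON alone numbered 58, with 72.4% still enriched in mutant FSK and medians of 1.92 and 1.48 in WT and mutant CON and of 2.53 and 2.08 in WT and mutant FSK.

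For beta cell levels, rescaled columns and ratios with the median of all genes set to 0 each gave 2 higher genes in WT Ex-4 and 2 in mutant CON against WT CON. Rescaling moved the median log2 ratio of all genes by 0.14 in mutant CON against WT CON and by -0.15 in mutant FSK against mutant CON. With the length trend removed, 1 gene was lower in WT FSK, 0 were higher and 8 lower in WT Ex-4, and 0 were higher in mutant CON. At 2-fold, 2 were higher and 1 lower in WT FSK, 0 higher and 5 lower in WT Ex-4, and 0 higher in mutant CON. Genes chosen at 2-fold gave 10 higher and 12 lower in WT FSK, 2 and 29 with Ex-4 in WT, 33 and 13 in mutant FSK, 1 lower in mutant Ex-4, and 4 higher and 40 lower in mutant CON. Genes chosen at 5-fold gave 0 higher and 1 lower in WT FSK, 0 lower in WT Ex-4, 0 higher in mutant FSK and 2 lower in mutant CON. Genes chosen at 2 CP10K gave 2 higher in WT FSK. Genes chosen over alpha, delta and endothelial cells gave 7 higher and 5 lower in WT FSK, 29 lower in WT Ex-4, 28 higher in mutant FSK, 1 lower in mutant Ex-4 and 36 lower in mutant CON. These counts come from sets of other sizes. Of 360 log2 ratios of single genes under 3 scalings, 5 of genes past 1.5-fold changed sign, all with the length trend removed. Ins1 turned to 0.29 in mutant FSK and -0.28 in mutant CON, Gpr158 to -0.091 and 0.19, and Phactr1 to 0.032 in mutant CON. The cause of the other changes was not tested.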

Other observations

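Genes past 3-fold over alpha, delta and endothelial cells in both FSK conditions and in neither CON condition numbered 23. They included Gng12, a G protein gamma subunit, at 11-fold in WT FSK and 5.26-fold in mutant FSK (2.84-fold and 2.10-fold in CON), Entpd3, a surface ectonucleotidase of mature beta cells, at 6.12-fold and 4.59-fold (2.21-fold and 2.02-fold), and Gpd2, the mitochondrial glycerol phosphate dehydrogenase, at 4.42-fold and 3.93-fold (2.97-fold and 2.16-fold). Their median fold was 4.42 in WT FSK and 3.90 in mutant FSK, values that the rule itself fixes to lie above 3. This set was defined after the values were seen, and it was not tested.

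Only 2 of 617 genes at sufficient level in the other cell types were beta-depleted, at or under 0.333 of the lowest other cell type in both CON conditions. Ptprk, a receptor tyrosine phosphatase, was at a log2 ratio of -2.22 in WT CON and -1.99 in mutant CON, and Schip1, a schwannomin binding protein, at -2.12 and -1.87. The ratios of Ptprk and Schip1 were -2.60 and -3.00 in WT FSK, -1.97 and -2.55 in mutant FSK, -1.49 and -1.62 in WT Ex-4, and -0.99 and -1.91 in mutant Ex-4. Without the neuron columns they were -2.28 and -2.05 in WT Ex-4 and -1.42 and -1.91 in mutant Ex-4.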
